A study of Rattus norvegicus with 36 samples.

Results

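Heart and skeletal muscle genes were followed in rat lung after instillation of crystalline silica. The 32 genes were taken by name from the 25597 gene names of the array, with earlier results of these data known. They were read by 42 probes. Of the 32, 12 are named here as cardiac (Myh6, Tnnt2, Tnni3, Mybpc3, Actc1, Ryr2, Casq2, Pln, Nppa, Nppb, Myl4 and Myl7), 13 as skeletal (Acta1, Myh1, Myh2, Myh4, Myh13, Tnnt3, Tnni2, Actn3, Casq1, Pvalb, Mybpc1, Mybpc2 and Myoz1) and 7 as used by both muscles (Myh7, Tnnc1, Myl2, Myl3, Ttn, Ckm and Sln). All 32 passed the filter on low signal and were tested among 23940 genes, each by its brightest probe.

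The samples were accessory lung lobes of female Sprague Dawley rats, aged 13 weeks at instillation. Rats received 10 mg of DQ-12 crystalline silica per animal in saline into the trachea, or the saline vehicle alone, and were killed after 1, 30 or 180 days (D1, D30 and D180). Each of the 6 groups had 6 rats, 1 array per rat, 36 arrays in all. The model is therefore 1 dose of 1 particle in females, read in 1 lobe as a whole, and each control group carried the same instillation of fluid.

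Striated muscle is built of sarcomeres, in which myosin heavy and light chains pull on actin filaments under the control of troponin. Heart and skeletal muscle use different genes for most of these parts. In rats and mice the walls of the pulmonary veins hold a sleeve of cardiac muscle that runs from the left atrium into the lung, and its cells make the atrial light chains and the alpha heavy chain of heart muscle. Lung tissue has no skeletal muscle of its own, whereas diaphragm, oesophagus, chest wall and larynx lie close to it. A lobe was measured in bulk, so fewer cells of a type and less RNA per cell cannot be told apart.

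The probes that carried the results were 60 bases long, and they decide which member of a gene family a signal belongs to. Those shown are 3 cardiac genes that fell at D180, a pair of related myosins, Myh7 of both muscles and Myh2 of skeletal muscle, and 2 skeletal genes that were high on single arrays. They lie on the rat genome build rn4 at chr15:33044576-33044983 for Myh6 (minus strand), chr14:86568278-86568683 for Myl7 (minus strand) and chr1:68030210-68030735 for Tnni3 (plus strand), and these 3 probes cross an intron. Unbroken stretches of 60 bases were matched by the probes of Myh7 at chr15:33073880-33073939 (minus strand), Myh2 at chr10:53889275-53889334 (plus strand), Myh4 at chr10:53951729-53951788 (plus strand) and Tnnt3 at chr1:202758664-202758723 (plus strand). The probes of Myh7 and Myh2 fall on the same stretch of the myosin rod. They overlap over 44 bases, of which 29 were equal and 15 differed, and capitals mark the differing bases.
Myh6: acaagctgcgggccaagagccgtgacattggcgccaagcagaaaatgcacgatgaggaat
Myl7: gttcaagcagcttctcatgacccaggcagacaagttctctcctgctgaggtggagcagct
Tnni3: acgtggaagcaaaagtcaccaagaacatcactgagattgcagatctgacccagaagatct
Myh7: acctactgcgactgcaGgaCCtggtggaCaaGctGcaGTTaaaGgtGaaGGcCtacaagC
Myh2: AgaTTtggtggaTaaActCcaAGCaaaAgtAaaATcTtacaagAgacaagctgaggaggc
Myh4: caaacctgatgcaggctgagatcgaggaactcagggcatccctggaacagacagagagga
Tnnt3: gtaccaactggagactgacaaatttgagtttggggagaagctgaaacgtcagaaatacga

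Signals are given as log2 of the processed Cy3 intensity after quantile normalization, and a level of one probe says nothing against the level of another. As a check of the tissue, 6 lung epithelial genes (Sftpc, Sftpb, Sftpa1, Ager, Scgb1a1 and Rtkn2) were well above background on all 36 arrays. Over the whole series between 51.4% and 75.5% of probes were well above background on an array, and no spot was saturated. Of the 32 muscle genes, 19 were well above background on all 36 arrays. These were 10 of 12 cardiac genes, 4 of 7 genes of both muscles and 5 of 13 skeletal genes. At the other end, 8 genes were well above background on fewer than 18 arrays: the natriuretic peptides Nppa (6 arrays) and Nppb (4 arrays), Myl3 (17 arrays), and the skeletal genes Myh1 (12), Myh4 (7), Casq1 (5), Myh2 (3) and Mybpc1 (3). Most cardiac genes were thus measured in every lobe, and several skeletal genes in a minority of lobes.

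Some arrays stood apart and have to be known before the comparisons. On the array of DQ-12 D1 replicate 5 the mean log2 signal of the 13 skeletal genes was 7.93, against 5.22 to 5.75 on the other 5 arrays of its group. On the array of vehicle D180 replicate 5 that mean was 8.90, against 5.25 to 5.63 on the other 5. The DQ-12 D1 array was the highest of its group in 12 of 13 skeletal genes and in 0 of 12 cardiac genes. Its skeletal genes lay a median of 2.72 log2 units above the median of the other 5 arrays, and its cardiac genes lay at -0.08. The vehicle D180 array was the highest of its group in 11 of 13 skeletal genes, 7 of 7 genes of both muscles and 4 of 12 cardiac genes, with medians of 3.24, 1.09 and 0.34. In the same 11 skeletal genes it was also the highest of all 36 arrays. A smaller rise marked DQ-12 D30 replicate 6, with a skeletal mean of 6.31 and a median of 0.78 above the other 5. In DQ-12 D180 replicate 6 the cardiac genes stood out instead, as 9 of 12 were the highest of the group, by a median of 0.59, and 0 of 13 skeletal genes were.

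Other skeletal muscle genes, not on the list, were also high on these arrays. Their mean over 17 genes was 7.88 on DQ-12 D1 replicate 5, 8.56 on vehicle D180 replicate 5 and 6.93 on DQ-12 D30 replicate 6, each the highest of its group, while the group medians lay between 5.75 and 5.83. Fat genes had a mean of 7.50 on vehicle D180 replicate 5, where the group's lowest array had 5.46 and its median was 6.00. Genes of oesophageal epithelium had a highest mean of 5.46 in the same group, where the median was 5.24. The part of neighbouring tissue in these arrays was not tested, and the main results on skeletal genes are given below with and without the first pair of arrays, leaving 34.

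**Figure D1:**
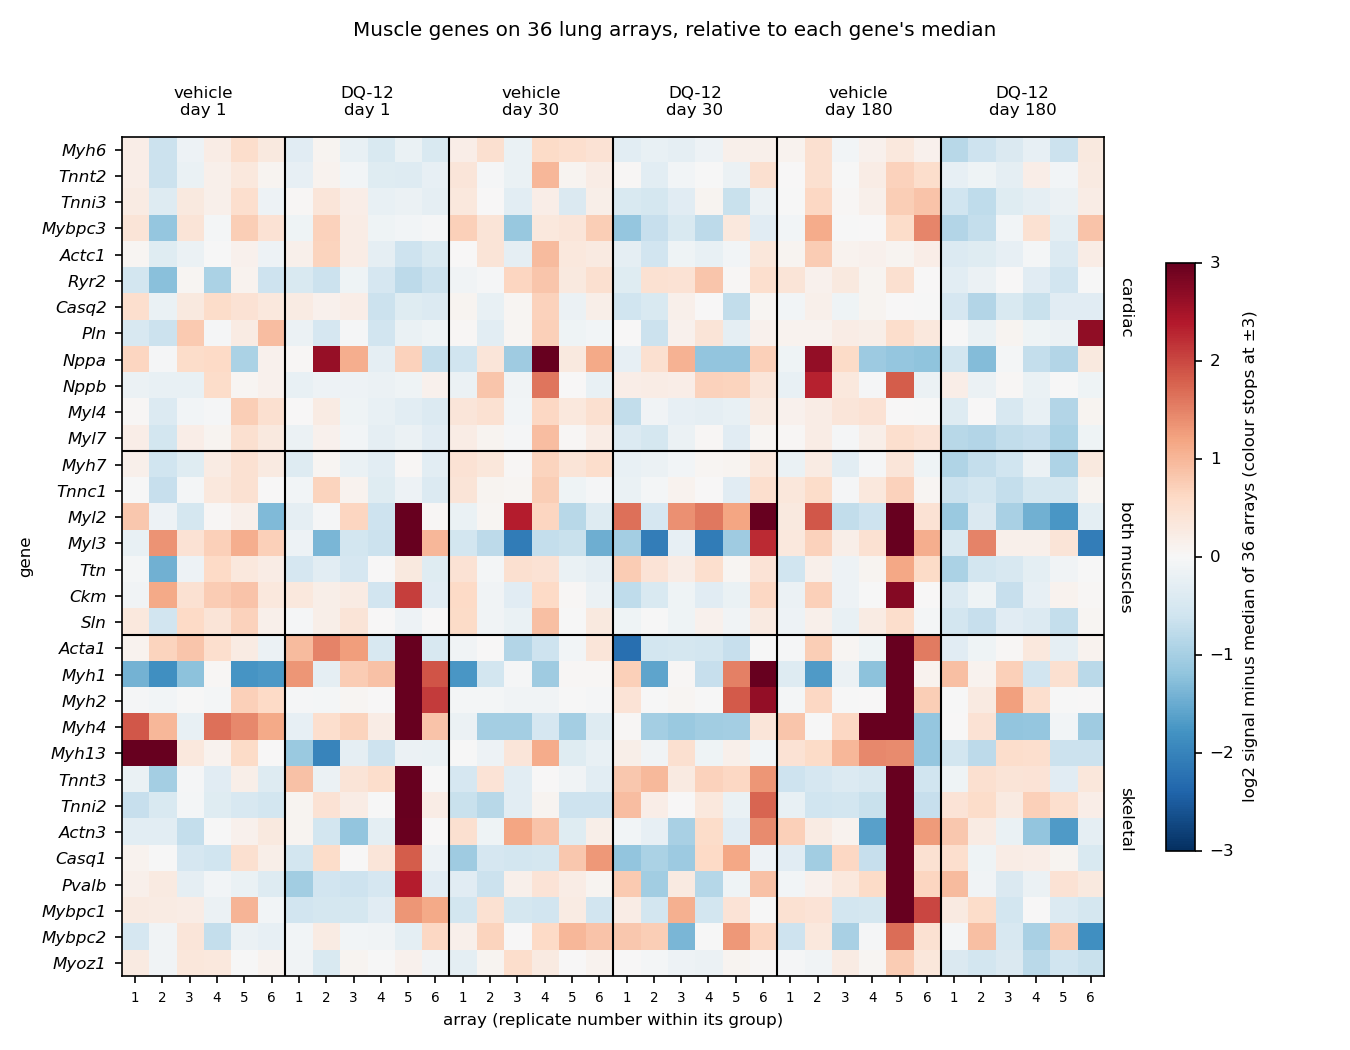
Log2 signal of the 32 muscle genes (rows, grouped as cardiac, both muscles and skeletal) on the 36 arrays (columns, grouped by day and treatment), as the difference from each gene's median over the 36 arrays. Most cardiac rows are lower on the DQ-12 than on the vehicle arrays of D180, least so on DQ-12 replicate 6. There 9 of 12 cardiac genes were the highest of the group. The skeletal rows are high on DQ-12 D1 replicate 5 and vehicle D180 replicate 5.

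The comparison of exposed with control lungs asked which muscle genes differed at each time. At D180 8 of the 32 genes fell and none rose by limma at an adjusted p under 0.05, where 9.01% of all genes tested fell and 7.81% rose. None of the 32 reached a 2-fold change together with that p, the rule the study used, which 3.63% of all genes met; 17 of the 32 had an unadjusted p under 0.05, against 27.9% of all genes. The genes that fell were 5 cardiac genes (Myl7, Tnni3, Myh6, Casq2 and Myl4), 2 genes of both muscles (Tnnc1 and Sln) and 1 skeletal gene (Myoz1). The median change of the 32 genes was -0.61 log2 units and 30 of them lay below 0, beside a median of -0.03 over all genes. By list the median was -0.52 for cardiac genes (11 of 12 below 0), -0.74 for genes of both muscles (7 of 7 below 0) and -0.79 for skeletal genes (12 of 13 below 0). The skeletal median was -0.16 without the pair of arrays (8 of 13 below 0), while in that fit the medians were -0.54 for cardiac genes and -0.44 for genes of both muscles. By the exact permutation test 12 of the 32 had p under 0.05, where 23.9% of all genes did, and in 4 of the 32 the groups did not overlap, where 7.32% did.

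Myl7, the regulatory light chain of atrial muscle, had a log2 signal of 13.73, 13.95 and 14.26 (lowest, median and highest of 6) in vehicle lungs at D180. The values after DQ-12 were 12.81, 12.96 and 13.62. All 6 exposed lungs lay below all 6 controls, the change was -0.92 (SE 0.16), the limma adjusted p was 6.55e-05 and the exact permutation p was 0.00216, the smallest the design allows. A second Myl7 probe changed by -0.26 with an adjusted p over probes of 0.451, so the size of the fall rests on the brighter probe. Myl4, the essential light chain of atrial muscle, read 10.07, 10.25 and 10.51 in vehicle lungs and 9.20, 9.78 and 10.17 after DQ-12. It changed by -0.50 (SE 0.17, adjusted p = 0.041), and 4 of 6 exposed lungs lay below every control.

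Tnni3, the cardiac inhibitory troponin, had 11.42, 11.81 and 12.28 in vehicle lungs at D180 and 10.67, 11.11 and 11.65 after DQ-12. Its change was -0.72 (SE 0.18, adjusted p = 0.00404), with 5 of 6 exposed lungs below all controls. Myh6, the alpha heavy chain of heart muscle, had 13.27, 13.48 and 13.81 in vehicle lungs and 12.50, 12.82 and 13.63 after DQ-12. It changed by -0.60 (SE 0.17, adjusted p = 0.0128), again with 5 of 6 exposed lungs below all controls and 1 within their range. Casq2, the calcium store protein of the cardiac sarcoplasmic reticulum, went from 8.92, 9.06 and 9.21 to 8.18, 8.58 and 8.73. The groups did not overlap, at a change of -0.53 (SE 0.17, adjusted p = 0.0267).

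The other cardiac genes did not pass at D180. Actc1, the cardiac alpha actin, had 13.07, 13.10 and 13.75 in vehicle lungs and 12.58, 12.68 and 13.20 after DQ-12, a difference of -0.44 (adjusted p = 0.112). Tnnt2, which anchors the troponin complex to tropomyosin, had 12.54, 12.90 and 13.24 against 12.29, 12.44 and 12.82, a difference of -0.36 (adjusted p = 0.167). Ryr2, the calcium release channel, had groups that did not overlap, 6.75, 6.94 and 7.20 against 6.16, 6.49 and 6.74, yet an adjusted p of 0.126. Mybpc3, the cardiac myosin binding protein, differed by -0.62 with an adjusted p of 0.244. Pln, which restrains the calcium pump, differed by 0.13 (adjusted p = 0.86). Its highest exposed value was 10.54 and 5 of 6 exposed lungs lay below every control, so its mean rested on DQ-12 D180 replicate 6. A second Pln probe differed by -0.57 (adjusted p over probes 0.127). The natriuretic peptides had no measurable direction: Nppa was well above background on 1 of 6 vehicle arrays and 0 of 6 exposed arrays at D180 (2.05, 2.66 and 5.90 against 1.96, 2.63 and 3.55), and Nppb on 2 and 0.

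Among the genes that both muscles use, Tnnc1, the calcium binding troponin of heart and slow muscle, had 10.53, 10.89 and 11.25 in vehicle lungs at D180 and 9.85, 10.01 and 10.63 after DQ-12. It changed by -0.80 (SE 0.19, adjusted p = 0.00256), and its second probe gave -0.70 (adjusted p over probes 0.0109). Sln, a small inhibitor of the calcium pump that is rich in atria, had 9.47, 9.73 and 10.22 against 8.97, 9.20 and 9.73. Its change was -0.53 (SE 0.18, adjusted p = 0.0447), while a second Sln probe gave -0.31 (adjusted p over probes 0.277). Myh7, the beta heavy chain of heart and slow fibres, differed by -0.50 with an adjusted p of 0.0529. Ttn, the giant spring of the sarcomere, differed by -0.60 (adjusted p = 0.122), and Myl3, the ventricular essential light chain, by -1.39 (adjusted p = 0.26). Myl2, the ventricular and slow regulatory light chain, had 3.95, 5.06 and 10.69 in vehicle lungs and 2.94, 3.65 and 4.39 after DQ-12, a difference of -2.21 with an adjusted p of 0.0687. Ckm, the muscle creatine kinase, had 8.28, 8.45 and 11.20 against 7.76, 8.26 and 8.55 (-0.74, adjusted p = 0.209). The highest vehicle value was that of replicate 5 in all 7 genes of both muscles. Without the pair of arrays high in skeletal genes the differences were -1.25 (adjusted p = 0.121) for Myl2, -0.30 (adjusted p = 0.481) for Ckm, -0.60 (adjusted p = 0.572) for Myl3, -0.41 (adjusted p = 0.328) for Ttn and -0.42 (adjusted p = 0.136) for Myh7.

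**Figure D2:**
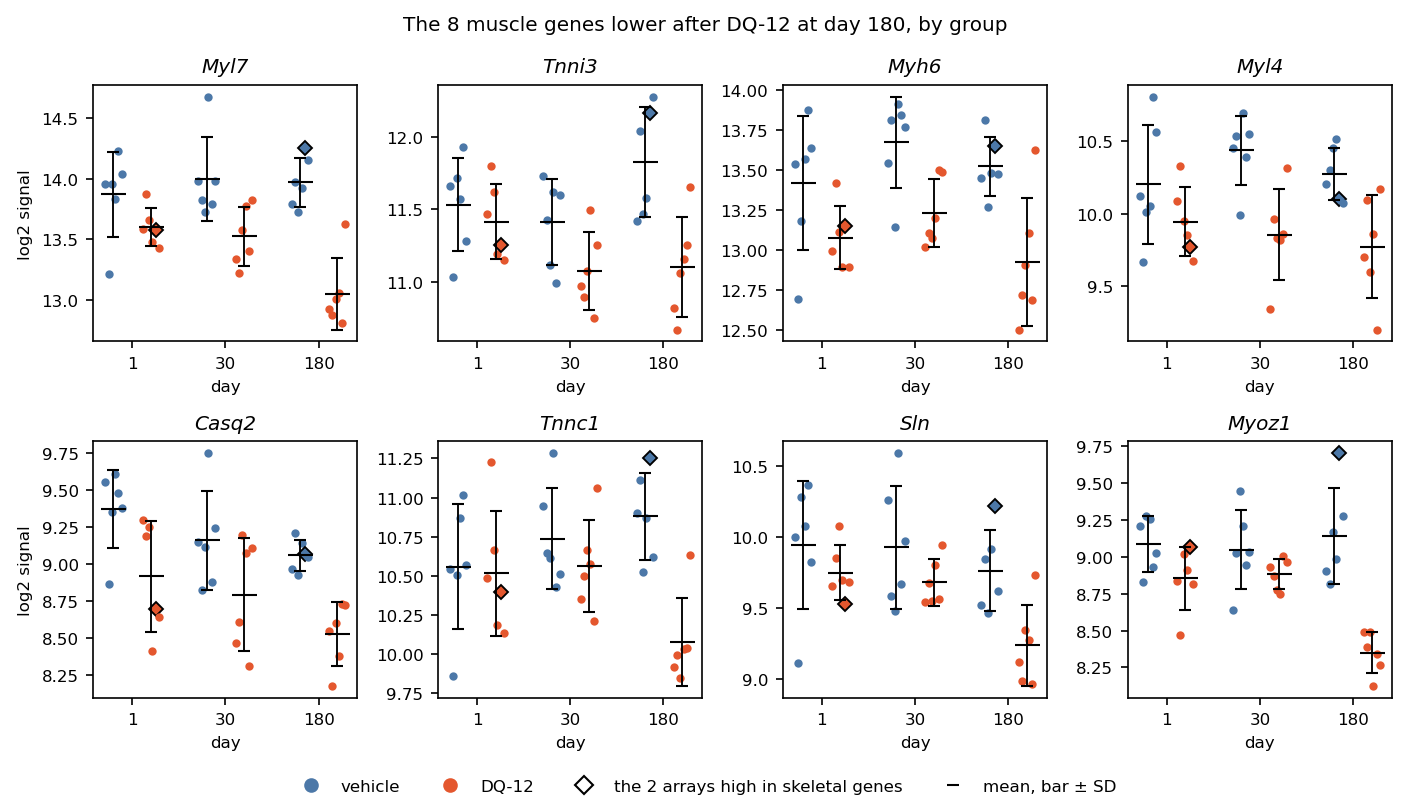
Log2 signal (vertical axis) of the 8 genes with a limma adjusted p under 0.05 at D180, for vehicle and DQ-12 lungs at D1, D30 and D180. Points are single arrays, bars are the mean and SD of 6, and diamonds mark the pair of arrays high in skeletal genes. For Myl7, Casq2 and Myoz1 all DQ-12 arrays at D180 lie below all vehicle arrays.

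Myoz1 was the 1 gene of the skeletal list that fell at D180. It encodes a Z-disc protein that binds calcineurin and is best known from fast skeletal fibres. Vehicle lungs had 8.82, 9.08 and 9.70, exposed lungs 8.12, 8.36 and 8.49, and the groups did not overlap (-0.79, SE 0.13, adjusted p = 2.98e-05). Myoz1 was well above background on all arrays of both groups. Its change without the pair of arrays was -0.68 (adjusted p = 0.000111).

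Of the 8 falls at D180, 7 passed without the pair of arrays as well. Beside Myoz1, Myl7 (-0.86, adjusted p = 0.000403), Tnni3 (-0.66, 0.0157), Myh6 (-0.57, 0.0322), Myl4 (-0.54, 0.0448), Casq2 (-0.53, 0.045) and Tnnc1 (-0.73, 0.0106) passed, and Sln did not (-0.44, 0.129). Scan dates held both groups in part, with 3 vehicle and 3 exposed arrays on one date and 1 of each on another at D180. On the first of these the differences were -0.88 for Myl7, -0.64 for Tnni3, -0.69 for Myh6, -0.59 for Myl4, -0.57 for Casq2, -0.85 for Tnnc1, -0.48 for Sln and -0.56 for Myoz1. On the other they were -1.17, -0.79, -1.12, -1.10, -0.48, -1.07, -0.88 and -0.48 in the same order. All 12 cardiac genes were lower in exposed lungs on both dates, by medians of -0.49 and -1.11. The 12 include Nppa and Nppb, which had no measurable direction (Nppb by -0.005 on the first date). The other date set 1 array against 1. Its vehicle array, replicate 2, was the highest of its group in Actc1 (13.75) and Myh6 (13.81). With scan date as a fixed block 7 of the 32 genes passed, where 14.7% of all genes did. Casq2 (adjusted p = 0.0783) and Sln (0.0705) were lost and Myh7 was gained (-0.72, 0.00391). Slide as a fixed block left 0 of 32, with 1 slide at D180 holding both groups, where 2.48% of all genes passed. That slide set 1 array against 1, and both belong to the scan date with 3 arrays of each group. On it 10 of 12 cardiac genes were lower, Myh6 by -0.98 and Tnni3 by -0.76. As a random block, slide left 10 and scan date 9 of the 32 past the threshold, where 16.2% and 18.9% of all genes passed.

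Other cell types moved as well at D180, when 9.01% of all genes tested fell and 7.81% rose. The part of these cell types in the muscle result was not tested. Of 10 smooth muscle genes 6 fell (among them Myh11 by -0.82, adjusted p = 1.17e-05, and Mylk by -0.75, adjusted p = 6.11e-06), and the mean of the list was 9.14, 9.18 and 9.39 in vehicle lungs and 8.52, 8.78 and 8.97 after DQ-12. Of 5 mesothelial genes 3 fell (Upk1b, Upk3b and Lrrn4), with list means of 9.34, 9.44 and 9.84 against 8.65, 8.99 and 9.02. Of the 6 lung epithelial genes, the alveolar type 1 genes Ager (-0.42) and Rtkn2 (-0.75) fell and the surfactant gene Sftpa1 rose (0.47). The other 3, among them the surfactant genes Sftpc and Sftpb, did not pass, and 5 of the 6 lay below 0. The mean of the cardiac genes on the same arrays was 9.22, 9.36 and 9.96 against 8.67, 8.84 and 9.55.

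Further genes named here as muscle genes, which were not on the list, were also compared. Which cells of the lobe made them was not tested. At D180 9.01% of all genes tested fell and 7.81% rose. Of 18 other cardiac genes 8 fell and none rose at that time, and the median was -0.56. They included the transcription factors Tbx5 (-0.97, adjusted p = 0.00691) and Gata4 (-0.73, adjusted p = 0.0145), the potassium channel Kcnj5 of atrial cells (-0.71, adjusted p = 0.00258), the calcium binding protein Hrc (-0.93, adjusted p = 0.00148), the intercalated disc protein Myzap (-0.91, adjusted p = 3.17e-05) and Popdc2 (-0.67, adjusted p = 1.46e-05). Corin, the protease that activates the natriuretic peptide of the atria, changed by -0.60 (adjusted p = 0.0011), and the splicing factor Rbm20 by -0.56 (0.0373). Of 19 further genes of both striated muscles 6 fell (Csrp3, Ldb3, Ckmt2, Smpx, Fabp3 and Mb) and none rose, with a median of -0.54. Of 17 other skeletal genes tested 2 fell, the calcium channel subunit Cacna1s (-1.55, adjusted p = 0.0373) and the giant filament protein Neb (-0.84, adjusted p = 0.00136), and none rose. With the pair left out, Neb still fell (-0.77, adjusted p = 0.00503), and Cacna1s did not pass (-1.23, adjusted p = 0.125). In that fit 7 of the 18 other cardiac genes and 4 of the 19 genes of both muscles fell, as did 1857 of all 23940 genes. None of 4 myogenic regulators passed at any time.

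**Figure D3:**
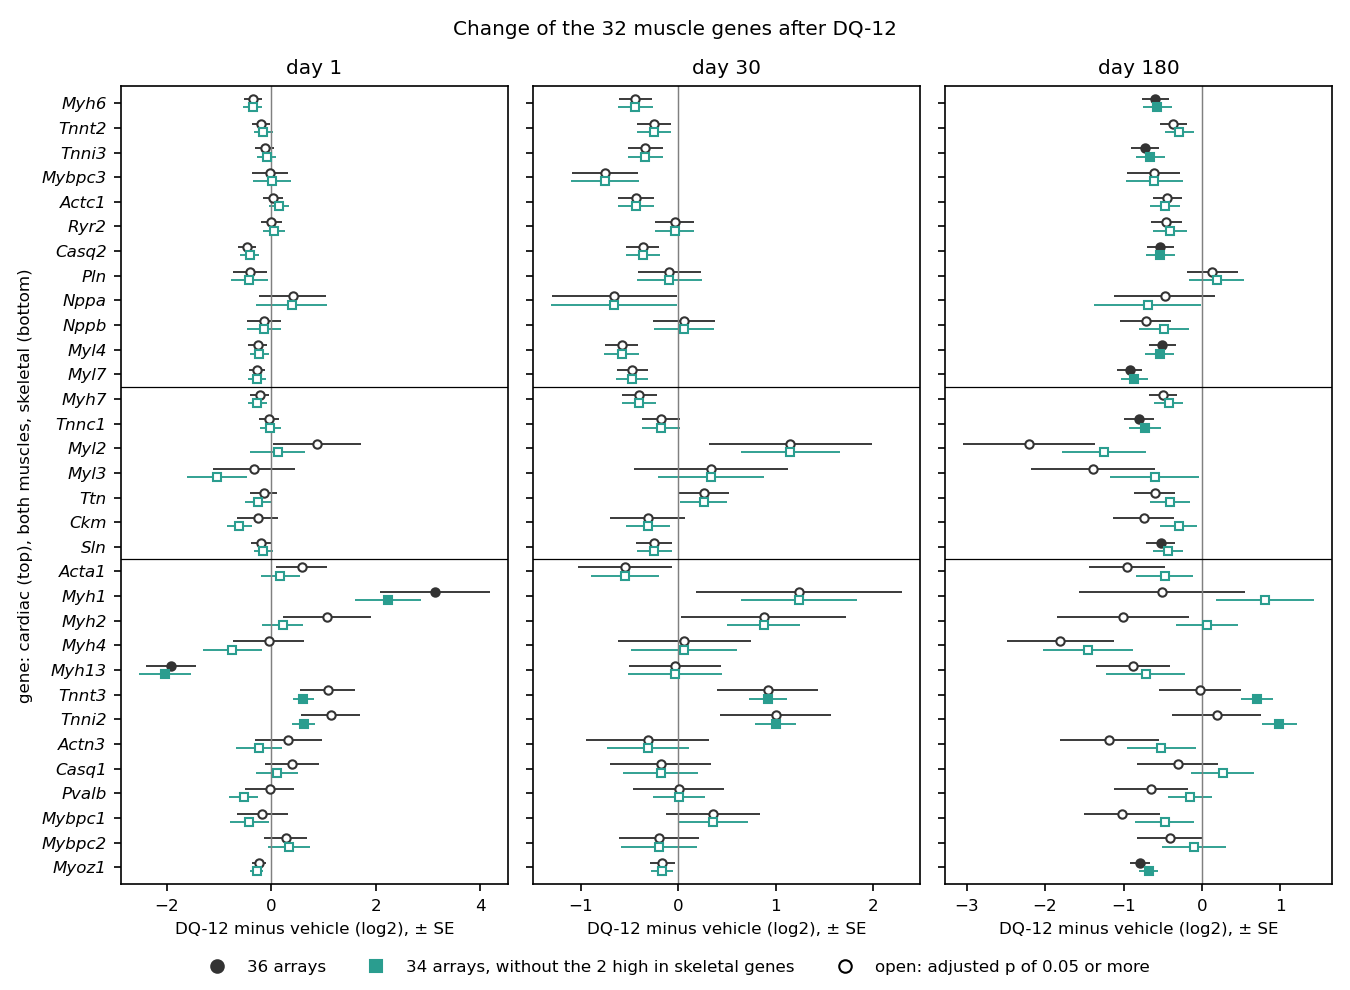
Difference between DQ-12 and vehicle lungs (log2, horizontal axis, bars are SE) of the 32 muscle genes (vertical axis) at D1, D30 and D180, from all 36 arrays (circles) and from 34 arrays without the pair high in skeletal genes (squares). Filled symbols have an adjusted p under 0.05. At D180 the cardiac genes lie left of 0 in 11 of 12 cases, and Tnni2 and Tnnt3 move to the right once the pair is left out.

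At D30 none of the 32 genes was called by limma with the 2-fold rule, which 1.05% of all genes met, and none passed the adjusted p alone, where 3.98% did (1.24% fell and 2.74% rose). An unadjusted p under 0.05 was reached by 7 of the 32 (15.8% of all genes) and an exact permutation p under 0.05 also by 7 (14.2% of all genes). In 1 of the 32, Myh2, the groups did not overlap, where 2.36% did. The median of the cardiac genes was -0.40 with 11 of 12 below 0, that of the genes of both muscles -0.18 and that of the skeletal genes 0.00. Of the 18 other cardiac genes, Popdc2 (-0.47) and Ankrd1 (-0.76) fell and none rose, and none of the 19 further genes of both muscles passed. Myl4 came closest, with 9.99, 10.50 and 10.69 in vehicle lungs and 9.34, 9.84 and 10.32 after DQ-12 (-0.58, SE 0.17, adjusted p = 0.0504). Myl7 had 13.73, 13.90 and 14.68 against 13.22, 13.49 and 13.82 (-0.47, adjusted p = 0.0912). Both atrial light chains overlapped between groups. Myh6 had 13.15, 13.79 and 13.92 against 13.02, 13.16 and 13.50 (-0.44, adjusted p = 0.167), and Tnni3 10.99, 11.51 and 11.73 against 10.75, 11.02 and 11.50 (-0.34, adjusted p = 0.371). Actc1 differed by -0.44 (12.72, 13.28 and 13.93 against 12.41, 12.81 and 13.32) and Tnnt2 by -0.25 (12.35, 12.70 and 13.55 against 12.23, 12.50 and 13.03). Within scan dates 11 of 12 cardiac genes were lower on a date with 4 vehicle arrays and 1 exposed array, and 12 of 12 on a date with 2 and 5. Nppa and Nppb, mostly not well above background, are among the 12. With scan date as a fixed block 1 of the 32 passed, where 1.9% of all genes did.

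At D1 2 of the 32 genes met the 2-fold rule and the adjusted p, where 3.07% of all genes did, and both were skeletal myosin heavy chains. One of the 32 rose and 1 fell, where 7.58% and 8.62% of all genes did. An exact permutation p under 0.05 was reached by 5 of the 32 (33.1% of all genes), an unadjusted p under 0.05 by 4 (28.9%), and the groups did not overlap in 2 (11.2%). The median change was -0.16 for cardiac genes (9 of 12 below 0), -0.19 for genes of both muscles and 0.33 for skeletal genes, beside -0.01 over all genes. The skeletal median was 0.11 without the pair of arrays. Of the 18 other cardiac genes, Corin (-0.71), Popdc2 (-0.64) and Myzap (-0.47) fell and none rose, and of the 19 further genes of both muscles, Cox7a1 (-0.57), Ldb3 (-0.43) and Smpx (-0.67) fell and none rose. None of the 12 listed cardiac genes passed, and the smallest cardiac adjusted p was that of Casq2 (-0.46, 0.0628). Vehicle and exposed lungs overlapped widely in Myh6 (12.69, 13.56 and 13.88 against 12.90, 13.06 and 13.42), Myl7 (13.21, 13.95 and 14.23 against 13.42, 13.58 and 13.87) and Tnnt2 (11.90, 12.67 and 12.87 against 12.17, 12.30 and 12.67). The same held for Tnni3 (11.03, 11.62 and 11.93 against 11.15, 11.36 and 11.80), Myl4 (9.67, 10.09 and 10.81 against 9.67, 9.90 and 10.33) and Actc1 (12.61, 12.90 and 13.11 against 12.37, 12.93 and 13.64). Nppa had 2.33, 3.61 and 3.91 against 2.56, 3.63 and 5.87 at D1 and 2.20, 3.59 and 6.76 against 2.08, 3.39 and 4.31 at D30, mostly not well above background. At D1 scan date and treatment were nearly the same split, since all 6 exposed arrays shared a date with only 1 vehicle array.

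Myh1, the heavy chain of fast type 2X fibres, rose at D1. Vehicle lungs had 2.06, 2.32 and 3.92, with the probe well above background on 0 of 6 arrays, and exposed lungs had 3.61, 5.00 and 10.20, with 5 of 6 well above background. The fitted change was 3.14 (SE 1.06, adjusted p = 0.0395, exact permutation p = 0.00433), and against the background of the vehicle arrays Myh1 was at least 5.38-fold higher. The highest value was that of replicate 5. Without the pair of arrays the change was 2.24 (adjusted p = 0.0133) and the bound at least 2.89-fold, with 4 of the 5 remaining exposed lungs above all vehicle lungs. Without replicate 5 alone it was also 2.24, and the adjusted p was 0.134. With scan date as a block neither the fixed (3.04, adjusted p = 0.453) nor the random fit (3.09, adjusted p = 0.168) passed. At D30 the values were 2.14, 3.60 and 3.93 against 2.32, 4.27 and 7.99 (adjusted p = 0.663), and at D180 2.21, 3.61 and 11.10 against 3.07, 4.18 and 4.79 (adjusted p = 0.826).

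Myh13, the heavy chain known from muscles of the eye and larynx, fell at D1. Vehicle lungs had 5.28, 5.71 and 8.40 and exposed lungs 3.28, 4.81 and 5.08, without overlap (-1.92, SE 0.48, adjusted p = 0.00482, exact permutation p = 0.00216). The size came from vehicle replicates 1 and 2, at 8.40 and 8.28. Without both of them the change was -0.98 and no muscle gene was called at D1. The fit with scan date as a fixed block gave -1.05 (adjusted p = 0.717). A second Myh13 probe was well above background on 0 of 36 arrays. The gene had 4.90, 5.18 and 6.38 against 5.14, 5.31 and 5.75 at D30 and 4.10, 6.05 and 6.71 against 4.48, 4.67 and 5.79 at D180, and passed at neither. Its deviations between arrays followed the other skeletal genes little, with a median r of 0.13.

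The remaining myosins of fast fibres were near background. Myh2, the type 2A chain, had 1.90, 1.95 and 2.68 against 1.92, 2.00 and 7.48 at D1, where the top value was again replicate 5. It had 1.86, 1.92 and 1.95 against 1.95, 2.20 and 4.61 at D30 and 1.92, 2.30 and 8.67 against 1.95, 2.12 and 3.20 at D180, with the vehicle D180 top value in replicate 5. It was well above background on 1 array in each of these 3 comparisons. Myh4, the type 2B chain, had 3.00, 4.51 and 5.09 against 2.98, 3.81 and 7.79 at D1 and 2.19, 2.46 and 3.05 against 2.11, 2.20 and 3.60 at D30. At D180 it had 2.06, 3.95 and 7.68 against 2.03, 2.65 and 3.66, with a limma adjusted p of 0.067. It was well above background on 2 vehicle arrays and 0 exposed arrays, so it had no measurable direction. Without the pair of arrays Myh4 was well above background on 1 vehicle array and 0 exposed arrays at D180 (limma adjusted p = 0.0868). The Myh2 difference at D180 was then 0.07 (adjusted p = 0.947).

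The same single arrays were high in Acta1 and Pvalb, which were well above background on 36 and 35 arrays. Acta1, the skeletal alpha actin, had 7.02, 7.56 and 8.01 in vehicle lungs against 6.70, 8.28 and 10.18 at D1. It had 6.30, 7.09 and 7.56 against 4.92, 6.63 and 7.18 at D30, and 7.05, 7.57 and 10.46 against 6.85, 7.14 and 7.50 at D180. None of the 3 differences (0.59, -0.55 and -0.95) passed, and without the pair of arrays they were 0.18, -0.55 and -0.48. Pvalb, a calcium buffer of fast fibres, had 5.40, 5.65 and 6.06 against 4.75, 5.26 and 8.16 at D1. Its values were 5.16, 5.91 and 6.20 against 4.75, 5.87 and 6.67 at D30, and 5.72, 6.24 and 9.07 against 5.37, 5.88 and 6.76 at D180. The top values at D1 and D180 were those of the pair, and without it the D180 difference was -0.16 (adjusted p = 0.805). The alpha-actinin Actn3, the calcium store protein Casq1 and the myosin binding proteins Mybpc1 and Mybpc2 passed at no time, at differences of -1.18, -0.31, -1.02 and -0.41 at D180. These were -0.52, 0.26, -0.47 and -0.10 without the pair of arrays. Casq1 and Mybpc1 were well above background on only 5 and 3 of 36 arrays, so their differences had no measurable direction. Ckm had 8.36, 9.06 and 9.59 against 7.86, 8.67 and 10.52 at D1 and 8.12, 8.42 and 9.05 against 7.69, 8.18 and 9.08 at D30, and Myl2 3.35, 4.62 and 5.50 against 4.07, 4.68 and 9.16 at D1 and 3.86, 4.62 and 7.04 against 4.17, 6.16 and 7.97 at D30.

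**Figure D4:**
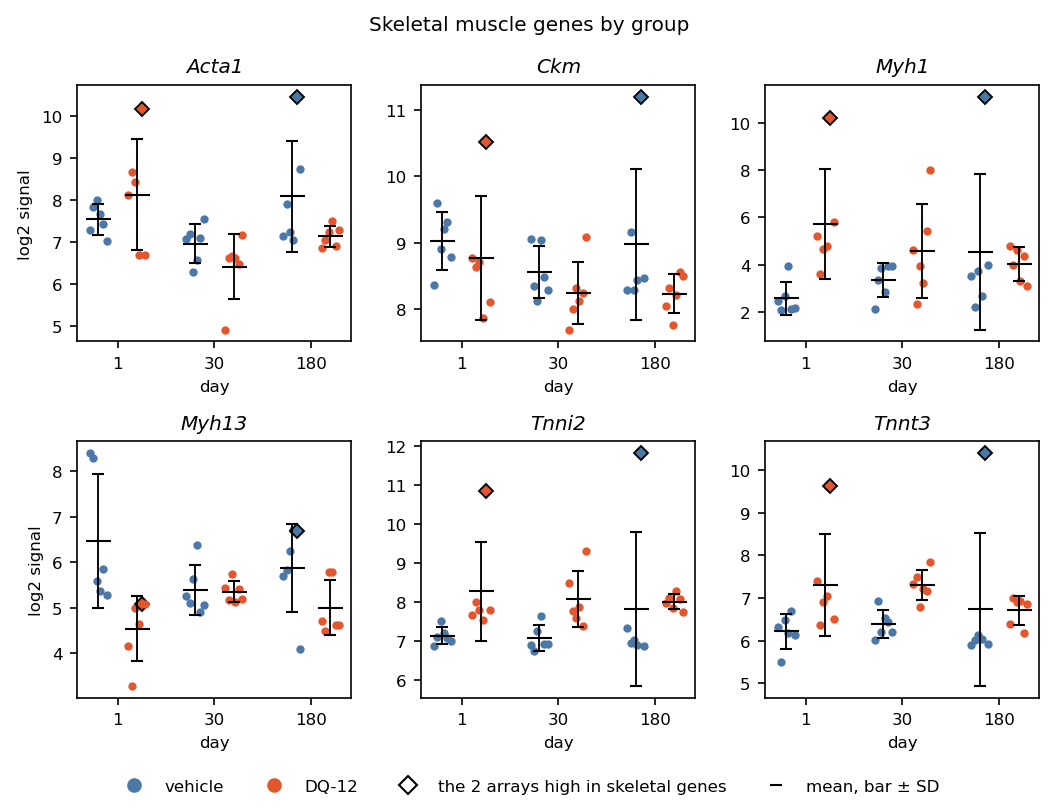
Log2 signal (vertical axis) of 6 muscle genes in vehicle and DQ-12 lungs at D1, D30 and D180; points are arrays, bars are the mean and SD of 6. Diamonds mark DQ-12 D1 replicate 5 and vehicle D180 replicate 5, which hold the highest value of their group in Acta1, Ckm, Myh1, Tnni2 and Tnnt3.

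A pair of fast troponin genes, Tnni2 (inhibitory) and Tnnt3 (tropomyosin binding), departed from this pattern. With all arrays neither passed limma at any time. Tnni2 nevertheless had 6.88, 7.10 and 7.51 in vehicle lungs against 7.54, 7.79 and 10.84 after DQ-12 at D1, without overlap (1.14, adjusted p = 0.181, exact permutation p = 0.00216). At D30 it had 6.74, 6.93 and 7.64 against 7.37, 7.82 and 9.31 (1.00, adjusted p = 0.417, exact permutation p = 0.00649). At D180 the values were 6.88, 6.98 and 11.82 against 7.75, 8.02 and 8.28 (0.19, adjusted p = 0.885), and the vehicle value of 11.82 was that of replicate 5. Tnnt3 had 5.51, 6.26 and 6.71 against 6.36, 6.98 and 9.63 at D1 (1.08, adjusted p = 0.162), 6.02, 6.32 and 6.93 against 6.79, 7.28 and 7.84 at D30 (0.92, adjusted p = 0.415) and 5.90, 6.03 and 10.40 against 6.18, 6.88 and 7.01 at D180 (-0.03, adjusted p = 0.985).

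In the fit without the pair of arrays, both troponins passed as higher at all 3 times. Tnni2 changed by 0.63 (adjusted p = 0.0489) at D1, 1.00 (0.00357) at D30 and 0.99 (0.00158) at D180, and Tnnt3 by 0.62 (0.037), 0.92 (0.00431) and 0.71 (0.0157). Of the 32 genes 4 passed at D1 in that fit (15.9% of all genes), namely these 2 and Myh1, which rose (7.61% of all genes), and Myh13. At D30 the troponins alone passed (3.94% of all genes, 2.79% higher), and at D180 they were the 2 of 9 passing genes that rose (15.3% of all genes passed, 7.55% higher). At D180 all 6 exposed lungs, from 7.75 to 8.28, lay above the 5 remaining vehicle lungs, from 6.88 to 7.34, in Tnni2. In Tnnt3 the ranges were 6.18 to 7.01 and 5.90 to 6.12. On the D180 scan date with 3 arrays of each group, which held neither array of the pair, Tnni2 differed by 0.89 and Tnnt3 by 0.74. With scan date as a fixed block and the pair left out, Tnni2 passed at D180 only (0.95, adjusted p = 0.00721) and Tnnt3 at D30 only (0.89, adjusted p = 0.0455). As a random block, both passed at D30 (0.0251 and 0.00995) and D180 (0.000806 and 0.0161) and neither at D1. The pair was left out after its values were seen, and both troponins were among the 13 skeletal genes by which it stood out. These p are therefore not independent of the choice of arrays. The troponins were the only skeletal genes of the 13 to rise at D30 or D180 in the fit without the pair.

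The change was also compared between times. None of the 32 genes had a change that differed at D30 from D1, at D180 from D30 or at D180 from D1 with limma at an adjusted p under 0.05, where 2.18%, 0.242% and 4.54% of all genes did. An unadjusted p under 0.05 was reached by 1, 4 and 7 of the 32, where 16%, 11.7% and 19.1% of all genes reached it. The smallest adjusted p was 0.074, for Myoz1 at D180 against D1. The falls at D180 are therefore not shown to differ from the values at D1 or D30.

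Cardiac and skeletal genes also differed in how much they varied between rats of a group. The pooled SD within groups had a median of 0.32 over the cardiac genes, 0.46 over the genes of both muscles and 0.93 over the skeletal genes, where the median of all genes was 0.35. Of the 13 skeletal genes 5 lay above the 95th percentile of all genes (0.98), and of the 12 cardiac genes 1 did. Signal level was not matched between the lists. Of these skeletal genes, Myh1, Myh4 and Myh2 were well above background on 12, 7 and 3 arrays, Actn3 on 34 and Tnni2 on 36. The cardiac gene was Nppa, well above background on 6 arrays. The lowest skeletal SD was that of Myoz1 (0.22) and the highest that of Myh1 (1.90). Without the pair of arrays the skeletal median was 0.67, 2 genes stayed above the 95th percentile, and the cardiac median stayed at 0.32. The skeletal genes measured on every array then had 0.19 (Myoz1), 0.34 (Tnnt3), 0.37 (Tnni2), 0.62 (Acta1) and 0.69 (Mybpc2).

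Across the 36 arrays the genes fell into separate patterns when group means were removed. The median Pearson r was 0.42 over the 66 cardiac pairs, 0.53 over the 78 skeletal pairs and 0.02 over the 156 pairs of a cardiac with a skeletal gene. Genes on 1 array share its piece of tissue, its depth and its labelling, so these medians are descriptions. Without the pair of arrays they were 0.45, 0.10 and -0.01, so most of the likeness among skeletal genes rested on that pair. The pair was chosen for its high skeletal genes, and the arrays that stood apart in the cardiac mean were kept. The cardiac median of 0.45 is therefore no test of whether the cardiac likeness rested on single arrays. Of the genes of both muscles, Tnnc1 (median r 0.62), Myh7 (0.57) and Sln (0.56) varied with the cardiac genes. Myl2 (0.62), Myl3 (0.65) and Ckm (0.65) varied with the skeletal genes over all 36 arrays. After removal of the pair the latter 3 values were 0.16, 0.19 and 0.04. In the same order, their median r with the cardiac genes was then 0.23, -0.06 and 0.32.

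Of 6 pairs tested by permutation, Myh6 with Myl7 had r = 0.74 (permutation p = 1e-05, the smallest the permutations can give, adjusted over 6 pairs 3e-05) and Spearman's rho = 0.66 (permutation p = 5e-05, adjusted 0.00021), and r was 0.59 without the 2 arrays farthest from the median of Myh6. Myh6 with Tnnt2 had r = 0.70 (permutation p = 2e-05, adjusted 4e-05), rho = 0.64 (permutation p = 7e-05, adjusted 0.00021) and 0.63 without the farthest 2. Myl4 with Myl7 had r = 0.58 (permutation p = 0.00022, adjusted 0.00026), rho = 0.44 (permutation p = 0.0084, adjusted 0.013) and 0.53 without the farthest 2. Acta1 with Ckm had r = 0.79 (permutation p = 1e-05, adjusted 3e-05) and rho = 0.52 (permutation p = 0.0018, adjusted 0.0036). For Acta1 the farthest 2 were the pair of arrays high in skeletal genes. Without them r with Ckm was 0.58 with group means kept from all arrays and 0.51 with group means taken anew. Acta1 with Tnnt3 had r = 0.68 (permutation p = 0.00013, adjusted 0.00019) and rho = 0.32 (permutation p = 0.058, adjusted 0.069). Without the pair r was 0.26 and 0.048 in the same 2 ways, so this relation rested on those arrays. Across the classes, Myh6 with Acta1 had r = 0.27 (permutation p = 0.11, adjusted 0.11), rho = 0.30 (permutation p = 0.081, adjusted 0.081) and 0.36 without the farthest 2.

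**Figure D5:**
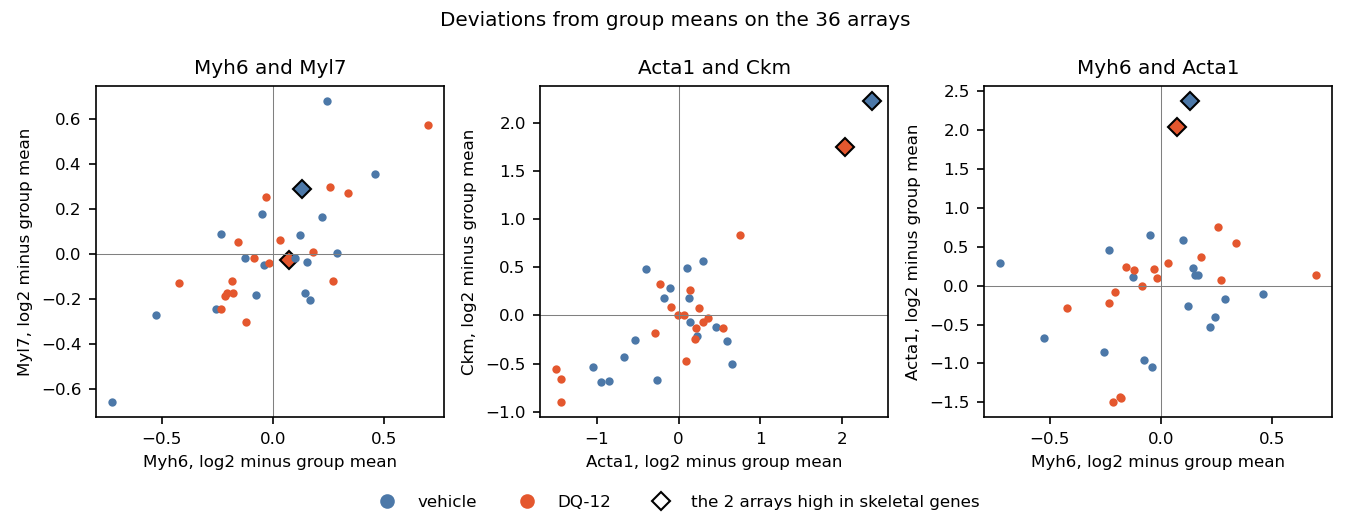
Deviation of log2 signal from the group mean on the 36 arrays for Myh6 and Myl7 (r = 0.74), Acta1 and Ckm (r = 0.79) and Myh6 and Acta1 (r = 0.27). Each point is 1 array, and diamonds mark the pair high in skeletal genes, which sits at the far end of the Acta1 axis and near the middle of the Myh6 axis.

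The genes outside the list that varied most like the mean of the cardiac genes over the 36 arrays were Srl (r = 0.75), a calcium binding protein of the sarcoplasmic reticulum, Mybphl (0.75), a myosin binding protein of atria, Myom1 (0.71), Csrp3 (0.70) and RGD1559683 (0.69). Of these, Srl (-0.91, adjusted p = 0.00496), Mybphl (-0.57, adjusted p = 0.011) and Csrp3 (-0.85, adjusted p = 0.00102) fell at D180. Those most like the skeletal mean were Atp2a1 (0.95), the calcium pump of fast fibres, and the light chain Mylpf (0.94). Then came Myot (0.90), Myl1 (0.89) and Tnni1 (0.89), which were well above background on only 6, 4 and 7 of 36 arrays. These r values include the pair of arrays high in skeletal genes, and none without it are given. Neither Atp2a1 (adjusted p = 0.49) nor Mylpf (adjusted p = 0.514) passed at D180.

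The 250 bases before the start of each gene were read from RefSeq (GRCr8), where 28 of the 32 genes were matched in the table of promoters used and Myl2, Sln, Tnnc1 and Tnnt3 were not. They were searched on both strands for the CArG box, which serum response factor binds, for CATTCC, which TEAD factors bind, and for the TATA box TATAAA. A CArG box was found before 2 of 12 skeletal genes (Acta1 and Myh4) and 0 of 12 cardiac genes, and before 1.5% of 33469 promoters. CATTCC stood before 4 of 12 skeletal and 3 of 12 cardiac genes, and before 12.1% of all promoters. TATAAA stood before 6 of 12 skeletal and 3 of 12 cardiac genes, and before 12.9% of all promoters. The promoters of Acta1, at chr19:68784195-68784444 on the minus strand, and of Myh6, at chr15:32411698-32411947 on the minus strand, show one gene of each class, with the matches in capitals.
Acta1: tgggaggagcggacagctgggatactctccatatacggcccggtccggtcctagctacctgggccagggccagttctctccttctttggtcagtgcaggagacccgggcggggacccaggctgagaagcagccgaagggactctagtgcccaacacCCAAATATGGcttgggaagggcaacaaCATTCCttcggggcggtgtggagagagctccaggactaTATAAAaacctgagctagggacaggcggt
Myh6: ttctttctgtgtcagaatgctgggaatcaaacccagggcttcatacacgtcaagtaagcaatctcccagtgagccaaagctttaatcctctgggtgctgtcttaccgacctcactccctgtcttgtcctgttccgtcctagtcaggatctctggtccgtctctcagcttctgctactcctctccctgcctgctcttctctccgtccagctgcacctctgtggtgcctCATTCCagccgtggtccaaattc
In Acta1 the CArG box, CATTCC and TATAAA begin 94, 67 and 29 bases before the start, and in Myh6 CATTCC begins 23 bases before it. A match says only that the letters are there.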

How the data were processed

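Lobes were hybridized to 1-colour Agilent arrays of 58717 spots. The authors deposited the Cy3 intensity of each spot as Agilent Feature Extraction 12.0.1.1 wrote it, background-subtracted, with probes on rn4. They also deposited log2 values, found to be log2 signal scaled to each array's 75th percentile and centred per probe (r = 0.99997 with the scanner values), which were used as an alternative. The study's methods name quantile normalization, a batch correction whose variable is not given, and limma.

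From the intensity files, log2 processed signals were used without control spots and spots flagged as outliers (232 to 596 per array). Spots of a probe were averaged, and a probe was kept if on 6 or more arrays it exceeded 95% of the 308 negative control spots. Arrays were quantile normalized, and each gene was read by its brightest probe on average. A model of 6 group means was fitted over 36 arrays (R 4.3.3, limma 3.58.1), with Benjamini-Hochberg adjustment over 23940 genes. A call was a 2-fold change with an adjusted p under 0.05. A gene was also compared by a 2-sided exact permutation test over 462 splits of 12 arrays, and correlations by 100000 permutations. The procedure was tested on simulated data with known changes. No batch was fitted in the main model; slide (19) and scan date (11), read from the file headers, were tried as blocks, as were other signals, backgrounds, scalings, filters, probe rules, weights and single arrays left out. The number of arrays limits the precision. Separate rats are given by the study's methods.

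The members and the gene lists beside them were chosen with earlier results of these data known. Values in all groups are given for members called at any time and for 16 members listed by name, and the 5 genes most alike are named for each class. Probes and promoters were placed from the array files and RefSeq GRCr8 tables, which do not share a build, and 31 of the 32 probes had a position, 6 of them across an intron. The sequence of 1 further probe is not reported here.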

Additional observations from a re-analysis of the deposited data

Results flagged for a closer look

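An array was marked where its gap to the nearest array of its group, divided by the range of the group, was above Dixon's limit for a group of 6. Chance marks about 1 group in 20. Of 192 combinations of a muscle gene and a group 27 were marked, and of 18 combinations of a list mean and a group 6 were.

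DQ-12 D1 replicate 5 was high in 8 genes and 2 list means. Its mean of the skeletal genes had a gap of 0.803 of the range and that of the genes of both muscles 0.793. Among single genes the shares were 0.753 for Myl2, 0.658 for Ckm, 0.67 for Myh1, 0.773 for Myh4, 0.682 for Tnnt3, 0.86 for Tnni2, 0.698 for Actn3 and 0.791 for Pvalb.

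Vehicle D180 replicate 5 had a gap of 0.896 of the range in the skeletal mean and 0.682 in the mean of the genes of both muscles. Its genes were Myl3 (0.821), Ckm (0.7), Myh1 (0.799), Myh2 (0.884), Tnnt3 (0.951), Tnni2 (0.908) and Pvalb (0.785).

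The cardiac genes marked other arrays. DQ-12 D180 replicate 6 was high in the cardiac mean (0.681), Pln (0.899), Myl7 (0.695) and Tnnc1 (0.759). Vehicle D1 replicate 2 was low in the cardiac mean (0.788), Casq2 (0.651) and Ttn (0.638). The rest were single genes, namely Mybpc3 in vehicle D30 replicate 3 (0.772), Actc1 in vehicle D180 replicate 2 (0.845), Nppb in DQ-12 D1 replicate 6 (0.753), Myl7 in vehicle D30 replicate 4 (0.733), Acta1 in DQ-12 D30 replicate 1 (0.695), Myh1 in vehicle D1 replicate 4 (0.675) and Mybpc1 in vehicle D1 replicate 5 (0.628).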

How the results depend on the processing

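At D1 the 2 muscle genes called became 1 with the median signal, 75th percentile scaling, the deposited log2 table, the filter on probes well above background, the mean of probes and each day fitted alone. They became 0 with normexp, with slide or scan date as a fixed or random block and without the 2 vehicle D1 arrays high in Myh13, 4 with array weights, and 1 to 4 with single arrays left out. By adjusted p alone the 2 genes became 1 with normexp, 75th percentile scaling, the deposited table, the mean of probes and each day alone. They became 0 with the 4 block fits and without the 2 vehicle D1 arrays, 8 with array weights, 4 without the 2 or 3 arrays high in skeletal genes, and 1 to 4 with single arrays left out. At D30 no fit called a gene with the 2-fold rule. By adjusted p alone the 0 genes became 1 with the median signal, normexp, the well above background filter, each day alone, slide as a random block and scan date as a fixed block. They became 3 with array weights, 2 or 3 without the 2 or 3 arrays high in skeletal genes, and 0 to 1 with single arrays left out. At D180 the 0 genes called became 8 without the fold threshold, 1 with slide as a random block and 0 to 2 with single arrays left out. The 8 past adjusted p became 0 with slide as a fixed block and 6 to 10 with single arrays left out. For the changes between times, 1 gene passed adjusted p with array weights at D180 against D30, 1 with array weights or the well above background filter at D180 against D1, and 0 to 1 with single arrays left out.

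Tnnt3 at D180 reversed from -0.03 to 0.39 with array weights, 0.60 with scan date as a fixed block, 0.34 with slide as one, 0.088 with scan date as a random block and 0.71 without the 2 or 3 arrays high in skeletal genes, and ranged from -0.19 to 0.71 with single arrays left out. The median skeletal SD of 0.93 was 0.51 with normexp. The correlation of Acta1 with Tnnt3 was 0.048 without the 2 arrays. That of Myh6 with Acta1 was 0.39 after means of scan date and group were removed, and 0.23 to 0.35 with single arrays left out. With the 12 arrays of the day left out one at a time, Myh1 at D1 ranged from 2.24 to 3.56 and lost its call without vehicle replicates 1, 2, 3, 5 or 6 or DQ-12 replicates 5 or 6. At D180 Myl4 (-0.58 to -0.39) no longer passed the adjusted p without vehicle replicates 1, 2, 3 or 4 or DQ-12 replicates 1, 3, 4 or 5. The same held for Sln (-0.63 to -0.44) without vehicle replicates 2, 4 or 5 or DQ-12 replicates 1, 2, 4 or 5. It also held for Casq2 (-0.57 to -0.46) without vehicle replicate 2 or DQ-12 replicates 2 or 4. Myh13, Myl7, Tnni3, Myh6, Tnnc1 and Myoz1 passed the adjusted p in all 12. The cause was not tested. The alternatives with 2 or 3 arrays, or the 2 vehicle D1 arrays, left out were chosen after seeing the data.

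Replicate numbers did not pair the samples. The correlation of same-numbered arrays over all genes ranged from -0.06 to 0.16 at D1, -0.13 to 0.22 at D30 and -0.11 to 0.21 at D180. With a replicate block the D1 call count was 2, the D30 count 0 and the D180 count 0, and 7 of the 32 passed adjusted p alone at D180, where 16.8% of all genes did. Myl4 and Sln lost it and 1 other gene gained it.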

Other observations

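Tnni2 and Tnnt3 lie close together in RefSeq GRCr8, with 5 protein-coding genes between them, Ifitm10, Ctsd, Syt8, Lsp1 and Prr33. These neighbours were looked up after the values of the troponins were seen. Ctsd, the lysosomal protease cathepsin D, rose at D30 (0.60, adjusted p = 0.0233) and D180 (0.89, adjusted p = 8.43e-05) by limma, and Lsp1, an actin binding protein of leukocytes, rose at D30 (0.49, adjusted p = 0.0238) and D180 (0.85, adjusted p = 1.12e-05). At D1 neither passed. Syt8 rose at D1 (0.73, adjusted p = 0.0366), Ifitm10 fell at D180 (-0.59, adjusted p = 0.0319), and Prr33 passed at no time.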
